A study of Mus musculus with 17 samples.

Results

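The 9 genes described here form the circadian regulation group of the gene list printed on the Steroltalk v2 array, a cDNA microarray of selected metabolic and regulatory genes. They are Arntl (also called Bmal1), Clock, Per1, Per2, Per3, Cry1, Cry2, Dbp and Timeless, each with 1 probe, out of 271 genes named on 284 mouse probes. Every gene of that group was taken, whatever its values, but the group was chosen with earlier results of these data known. Liver RNA of 10 Lean and 10 Fat male mice was compared on 17 arrays, each with the RNA of 1 Lean and 1 Fat mouse in the dyes Cy3 and Cy5. Dyes were swapped on a repeat array for 7 of the 10 pairs of mice, while 3 pairs had 1 array each (Lean in Cy3 for pair 4, Lean in Cy5 for pairs 9 and 10). The Lean and Fat lines were bred from 1 base population (CBA, JU and CFLP background) by selecting in opposite directions on body fat for more than 60 generations. Each line is therefore 1 inbred genotype, and a difference between the lines cannot be tied to any single locus. All mice were 14 weeks old, were fasted for 4 h and lived under a cycle of 12 h light and 12 h dark. The time of day at which each mouse was killed is not given in the sources used here. All ratios below are log2 ratios of Lean over Fat, so a value above 0 means more signal in the Lean mouse.

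The mammalian clock is a feedback loop of transcription. CLOCK and ARNTL form a heterodimer that binds E-box motifs and drives Per, Cry, Nr1d and Dbp genes, the PER and CRY proteins return to inhibit it, and the nuclear receptors NR1D and ROR repress and activate Arntl through ROR elements. In liver the loop runs in most hepatocytes and sets the daily timing of many genes of glucose, lipid, bile acid and heme metabolism, with Arntl transcript levels high at a time of day when those of Dbp and the Per genes are low.

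The motifs of this loop were looked up in RefSeq promoter windows of build GRCm38.p6, which run from 250 bases before to 50 bases after a transcript start and were read on the strand of the gene. Windows were found for 8 of the 9 genes and for 4 further genes of the loop. Both strands were searched for the E-box CACGTG, the D-box TTANGTAA, which DBP and its relatives bind, and the ROR element AANTAGGT. Of 32851 mouse windows of this length, 7.15% held the E-box, 2.32% the D-box and 2.3% the ROR element. The 3 windows below are shown because they carry 1 motif of each kind, in capitals.
Arntl (chr7:113207261-113207560, plus strand, ROR element): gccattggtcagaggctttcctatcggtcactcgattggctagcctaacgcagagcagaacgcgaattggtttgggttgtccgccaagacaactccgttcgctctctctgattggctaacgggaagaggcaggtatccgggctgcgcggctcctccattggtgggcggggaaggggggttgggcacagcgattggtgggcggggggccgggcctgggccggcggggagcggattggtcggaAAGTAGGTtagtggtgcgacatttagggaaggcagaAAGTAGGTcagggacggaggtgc
Per1 (chr11:69098699-69098998, plus strand, E-box): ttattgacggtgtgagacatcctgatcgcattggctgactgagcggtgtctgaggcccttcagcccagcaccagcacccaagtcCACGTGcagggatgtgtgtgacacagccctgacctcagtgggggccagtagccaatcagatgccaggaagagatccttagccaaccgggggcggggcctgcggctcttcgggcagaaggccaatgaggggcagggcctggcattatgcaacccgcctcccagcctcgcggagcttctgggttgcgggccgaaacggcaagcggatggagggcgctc
Per3 (chr4:151044616-151044915, minus strand, D-box): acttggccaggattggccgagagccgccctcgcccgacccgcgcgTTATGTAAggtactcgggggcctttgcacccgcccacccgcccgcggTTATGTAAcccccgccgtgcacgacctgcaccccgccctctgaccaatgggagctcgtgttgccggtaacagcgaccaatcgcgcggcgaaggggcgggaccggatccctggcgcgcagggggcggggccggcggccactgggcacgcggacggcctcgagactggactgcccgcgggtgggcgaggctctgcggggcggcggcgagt
The Arntl window held 2 ROR elements and the Per3 window held 2 D-boxes. Cry1 held 1 E-box, and Timeless and Rorb held 1 D-box each. None of these letters occurred in the windows of Dbp, Clock, Cry2, Nr1d2, Rora or Arntl2. No window was found for Per2. A match describes the sequence and is not a measured binding site.

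The deposited scanner files hold the foreground and the local background of each spot before any normalization, and 34.9% to 78.8% of the mouse spots of an array were above background in both channels. A probe counted as above background on an array where most of its spots exceeded their background by more than 2 standard deviations of it. The clock probes were dim. Clock, the partner of ARNTL, was above background in both channels on 14 of 17 arrays, Cry1 on 12, Per2 on 9, Dbp on 6, Timeless on 5, Arntl on 3 and Cry2 on 1. Per1 and Per3 were above background in both channels on no array, with at most 4 arrays in the Lean and 2 in the Fat channel for Per1 and 3 and 1 for Per3. All 6 hepatocyte probes (Alb1, Apoa1, Apob, C3, Cyp2e1, Fgb) were above background in both channels on 17 of 17 arrays, as the liver label requires. Of markers of other cells, both probes of the macrophage receptor Msr1 and the endothelial Nos3 were above background in both channels on no array, Cav1 was on 13, Icam1 on 3 and Vcam1 on 1, and of the fat cell genes Adipoq was on 11, Lep on 1 and Retn and Lipe on none. No marker probe passed the adjusted threshold between the lines.

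**Figure D1:**
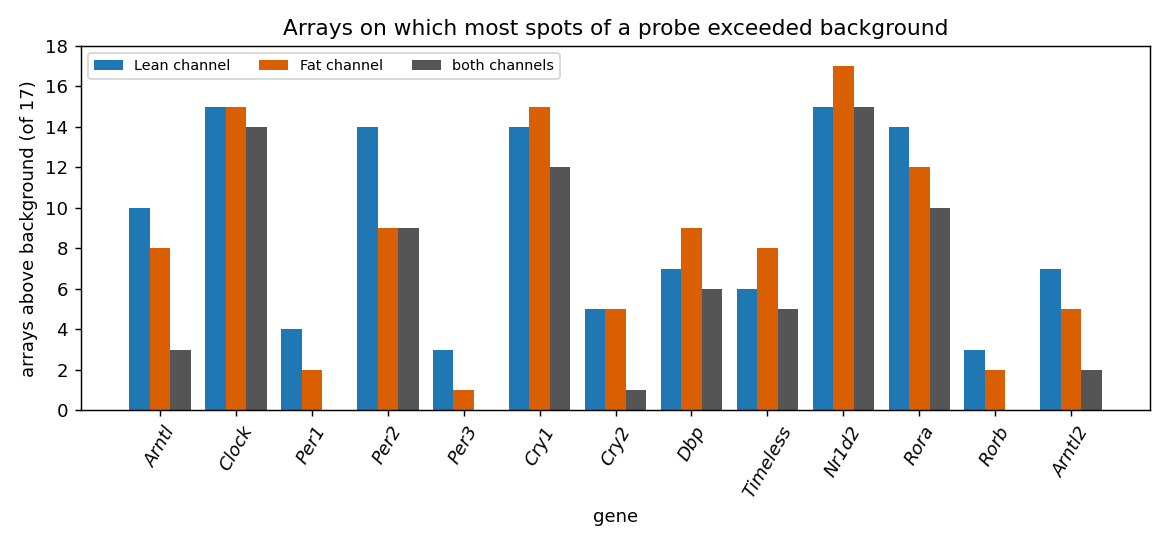
Number of the 17 arrays (vertical axis) on which most spots of each clock group and clock loop probe (horizontal axis) exceeded background, with bars for the Lean channel, the Fat channel and both together. Clock reached 14 arrays in both channels and Nr1d2 15, whereas Per1 and Per3 reached 0.

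No clock gene passed the adjusted threshold between Lean and Fat liver. Of the 9 probes, 0 reached an adjusted p under 0.05 in limma over all 284 probes, of which 3.52% did. At an unadjusted p under 0.05, 1 of the 9 did (Arntl, higher in Lean), beside 15.1% of all probes in either direction and 9.86% in the direction of higher in Lean. By the exact sign-flip permutation test over 1024 patterns it was again Arntl alone, beside 13% of all probes, and by the methods' t-test without adjustment 1 of 9, beside 12.3%. With LOWESS fitted to all mouse gene spots the count past the adjusted threshold was 0 of 9 again, beside 3.87% of all probes. The median log2 ratio of the 9 probes was 0.05 and 7 of the 9 were above 0, while the median of all probes was 0.04 and 197 of 284 were above 0. In bulk liver, a different amount of RNA per cell and a different number of expressing cells cannot be told apart.

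In the activating limb, the log2 ratio of Arntl, the partner through which CLOCK binds DNA, was -0.13 at the lowest (pair 7), 0.18 at the median and 0.54 at the highest (pair 5). It was above 0 in 7 of 10 pairs, and pairs 1, 5 and 10 lay well above the rest. The mean was 0.20, or 1.15-fold (standard error 0.07, 95% confidence interval 0.04 to 0.36), with p = 0.0189 and adjusted p = 0.215 in limma and p = 0.0371 in the exact two-sided sign-flip permutation test. With dim spots left out, 7 pairs had a value for Arntl and its mean was -0.08. Arrays with Lean in Cy5 read higher for Arntl than arrays with Lean in Cy3 (0.42 against -0.05 over the 7 dye-swapped pairs), and pair 10 was measured with Lean in Cy5 only. The mean was 0.19 over the dye-swapped pairs. The ratio of Clock, which also acetylates histones, went from -0.38 (pair 6) over a median of 0.11 to 0.37 (pair 8), with a mean of 0.09 (standard error 0.07, adjusted p = 0.584). Pair 6 stood alone below the other pairs, and 7 of 10 pairs were above 0.

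**Figure D2:**
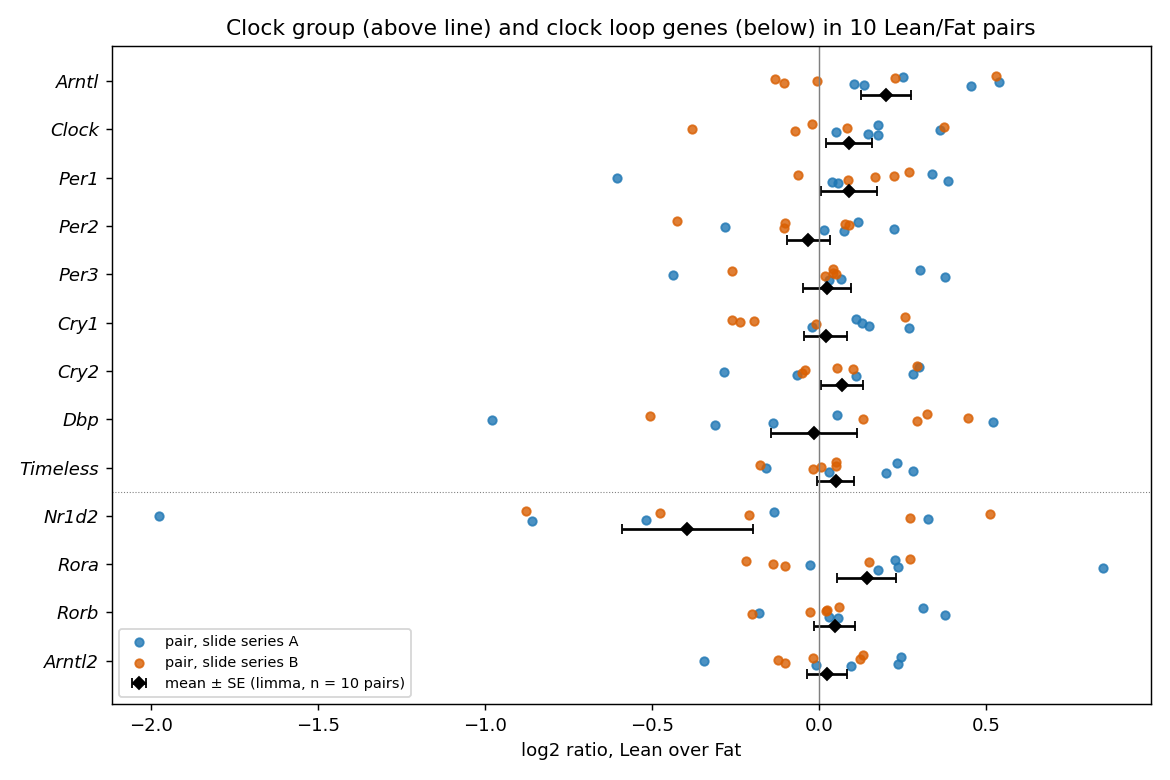
Log2 ratio of Lean over Fat (horizontal axis) for the 9 clock group genes and 4 clock loop genes (vertical axis), with a point for each of the 10 pairs coloured by slide series and a diamond for the mean with its standard error. Pair 5 is at -1.98 for Nr1d2 and -0.98 for Dbp, and it has the highest ratio of Arntl, at 0.54.

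In the inhibiting limb, none of the 3 Per and the 2 Cry genes passed the test. Per1, which clock activation and acute signals both induce, ranged from -0.61 (pair 5) over a median of 0.13 to 0.39 (pair 3) and had a mean of 0.09 (standard error 0.08, adjusted p = 0.647). Pair 5 lay far below the others, 8 of which were above 0. Per2, needed for rhythm in mice, ranged from -0.43 (pair 10) over 0.04 to 0.22 (pair 3), with a mean of -0.03 (standard error 0.06, adjusted p = 0.811). Per3, whose loss disturbs rhythms less, ranged from -0.44 (pair 5) over 0.04 to 0.38 (pair 3), with a mean of 0.02 (standard error 0.07, adjusted p = 0.867). Pair 3 was highest for all 3 Per genes, and pair 5 was lowest for Per1 and Per3, but the arrays of either orientation differed in sign in both pairs. In pair 3 the array with Lean in Cy3 read -0.27 for Per1, -0.17 for Per2 and -0.26 for Per3, and the array with Lean in Cy5 read 1.04, 0.61 and 1.01. In pair 5 these arrays read -1.36 and 0.15 for Per1 and -1.04 and 0.16 for Per3, whereas Nr1d2 read -2.14 and -1.81. Cry1, a strong repressor of CLOCK and ARNTL, ranged from -0.26 (pair 8) over 0.05 to 0.27 (pair 1), with a mean of 0.02 (standard error 0.06, adjusted p = 0.87). Cry2, its paralogue, ranged from -0.29 (pair 5) over 0.08 to 0.30 (pair 9), with a mean of 0.07 (standard error 0.06, adjusted p = 0.642). The Cry1 ratios fell on both sides of 0 in equal number, and 6 of 10 Cry2 ratios were above it.

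Dbp, a PAR bZIP factor and a direct target of CLOCK and ARNTL, varied more between pairs than the other 8 genes did. Its ratio ranged from -0.98 (pair 5) over 0.09 to 0.52 (pair 3), with a mean of -0.02 (standard error 0.13, adjusted p = 0.94). Pairs 1, 2, 5 and 8 were below 0 on both of their arrays, and the means of pairs 3, 4, 6, 7, 9 and 10 were above it. In pair 3 the array with Lean in Cy3 read -0.02 and its dye swap 1.06, and in pair 7 they read 0.14 and 0.75. Pairs 4, 9 and 10 had 1 array each. The standard deviation over pairs was 0.47, at rank 19 of 284 probes, while the other 8 genes held ranks 91 to 228. Timeless, the homologue of a fly clock gene and in mammals mainly a replication fork protein, ranged from -0.18 (pair 8) over 0.04 to 0.28 (pair 3), with a mean of 0.05 (standard error 0.06, adjusted p = 0.717). Its standard deviation of 0.15 was the smallest of the 9.

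The 4 further genes of the loop given here had no call either (0 of 4 at an adjusted p under 0.05 in limma, beside 3.52% of all probes, and 0 at an unadjusted p, beside 15.1%). Nr1d2, which encodes REV-ERB beta, a repressor of Arntl, had ratios from -1.98 (pair 5) over a median of -0.34 to 0.51 (pair 7). Its ratio was below 0 in 7 of 10 pairs, and pairs 3, 4 and 7 were above. The mean was -0.39 (standard error 0.20, 95% confidence interval -0.81 to 0.03, p = 0.0642, adjusted p = 0.389 in limma), or -0.22 without pair 5, and the standard deviation of 0.73 had rank 5 of 284. The probe was above background in both channels on 15 of 17 arrays. Rora, a receptor that activates Arntl, had a mean of 0.14 (standard error 0.09, adjusted p = 0.541), with pair 2 at 0.85. In that pair the array with Lean in Cy3 read 1.64 and its dye swap 0.06, and the mean was 0.06 without pair 2 and 0.02 with dim spots left out. Rorb, its paralogue, had a mean of 0.05 and Arntl2, a paralogue of Arntl, 0.02, both dim probes above background in both channels on at most 2 arrays.

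The differences between pairs could be checked on the 7 dye-swapped pairs, where a probe with a real difference between mice should read alike on both arrays. Of the 284 probes, 0% passed an adjusted p of 0.05 in this check (exact permutation test over pairings), 28 had an unadjusted p under 0.05, and the median r was -0.14. With 7 pairs the smallest p of this test is too large for a single probe to pass after adjustment over 284 probes. The 0% therefore does not show that no probe repeated. None of the 9 clock genes was among the 28. The orientations correlated at 0.67 for Arntl (p = 0.11), 0.63 for Clock (p = 0.126) and 0.49 for Dbp (p = 0.257), by the same exact test over 7 pairs. For Per1, Per2, Per3, Cry1, Cry2 and Timeless, r lay between -0.44 and 0.06. Nr1d2 reached 0.78 (exact p = 0.00635, adjusted p = 0.338). With LOWESS fitted to all mouse gene spots in place of the spike-ins, the median r of all probes was 0.22 and 48 had an unadjusted p under 0.05. Among these were Per1 at 0.83 (exact p = 0.0177, adjusted p = 0.173) and Dbp at 0.78 (exact p = 0.0472, adjusted p = 0.279), while Nr1d2 was at 0.91 (exact p = 0.00536, adjusted p = 0.109) and Arntl at 0.35 (exact p = 0.492). Arrays with Lean in Cy5 read 0.25 to 0.52 higher than those with Lean in Cy3 for each of the 9 genes in the spike-in fit, against -0.02 to 0.17 in the fit to all gene spots. The part of this dye shift in the ratios of pairs 4, 9 and 10 was examined by leaving these pairs out and by a dye term. The dye term was fitted to the 17 arrays with the pair as a block, and the estimated correlation within a pair was -0.08. Arrays of the same mice thus counted almost as separate replicates in that fit. With the dye term the mean ratio was 0.18 for Arntl (limma, adjusted p = 0.0999) and -0.07 for Dbp (limma, adjusted p = 0.888).

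Whether Arntl moved against the genes it drives was examined across the 10 pairs. Of 78 relations among 13 clock probes, 17 had a permutation p under 0.05 with the spike-in fit after adjustment over a family of 91, 16 of them positive, and the median r was 0.37. Probes of 1 array share its normalization, and the median ratio of all probes itself went from -0.19 (pair 5) to 0.20 (pair 3). After each pair was centred on that median, 6 relations passed, 2 positive and 4 negative, and the median r was 0.05. With LOWESS on all gene spots 9 passed, 3 positive and 6 negative, with a median r of 0.03. Spearman's coefficient gave 5, 3 and 1 calls in these 3 settings. No relation was computed within a slide series, since each holds 5 pairs and at least 6 were required.

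**Figure D3:**
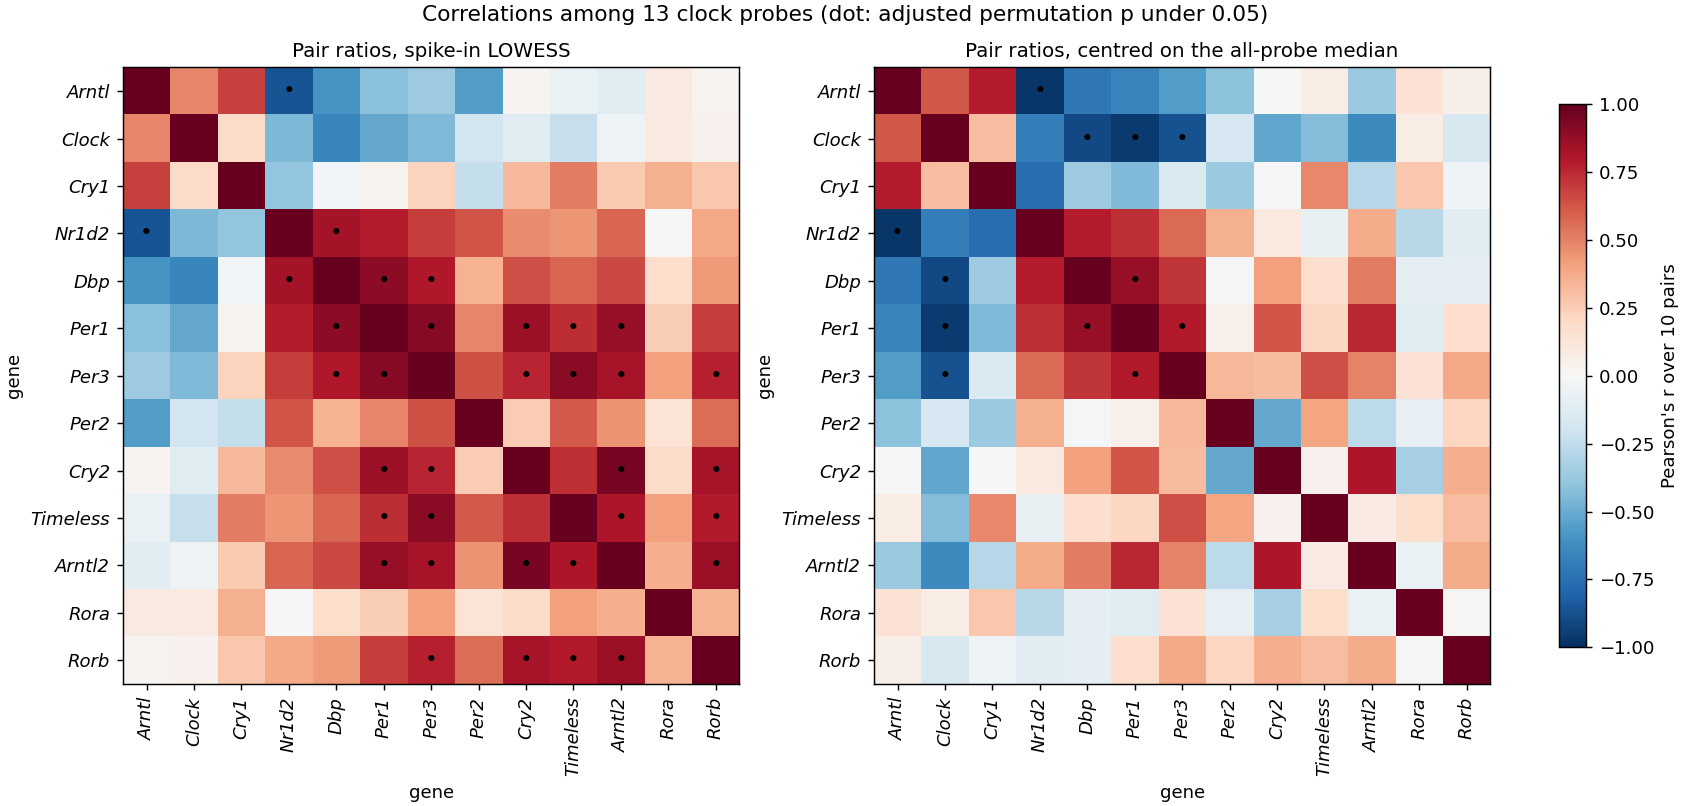
Pearson's r over 10 pairs (colour) for every combination of 13 clock group and clock loop probes (both axes), in the left panel from the spike-in fit and in the right panel after centring each pair on the median of all mouse probes, with a dot where the adjusted permutation p is under 0.05. Dots mark 17 relations in the spike-in fit and 6 after centring.

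Arntl and the Per genes had negative coefficients that did not pass the adjusted threshold. For Arntl and Per1, r was -0.42 (permutation p = 0.237, adjusted p = 0.401) and Spearman's coefficient -0.28 (p = 0.424, adjusted p = 0.565), and without the 2 pairs farthest from the median of Arntl (5 and 10) r was -0.19. Without pair 5 alone it was 0.00. For Arntl and Per2, r was -0.56 (permutation p = 0.0908, adjusted p = 0.212) and Spearman's coefficient -0.44 (p = 0.203, adjusted p = 0.362), and without the same 2 pairs r was 0.13. For Arntl and Per3, r was -0.36 (permutation p = 0.311, adjusted p = 0.469) and Spearman's coefficient -0.33 (p = 0.346, adjusted p = 0.488), with -0.00 without these pairs. In the spike-in fit the negative coefficients with Per2 and Per3 were thus gone without pairs 5 and 10. The coefficient with Per1 rested on pair 5. After centring, the coefficients of Arntl with Per1, Per2 and Per3 were -0.66, -0.41 and -0.56 (adjusted permutation p = 0.211, 0.637 and 0.353), and with LOWESS on all gene spots -0.71, -0.24 and -0.72 (adjusted p = 0.149, 0.826 and 0.117). Without the 2 farthest pairs they were -0.54, 0.04 and -0.30 after centring (pairs 5 and 10), and -0.07, -0.40 and -0.59 with LOWESS on all gene spots (pairs 5 and 7).

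For Arntl and Dbp, r was -0.59 (permutation p = 0.0707, adjusted p = 0.184) and Spearman's coefficient -0.59 (p = 0.0803, adjusted p = 0.222), and r was -0.71 without pairs 5 and 10. After centring, r was -0.72 (permutation p = 0.0188, adjusted p = 0.142), and with LOWESS on all gene spots -0.80 (permutation p = 0.00448, adjusted p = 0.0453). Without pair 10, r was -0.83 in the spike-in fit, which passed. The pairs in which the Lean mouse had more Arntl signal than the Fat mouse therefore tended to have less Dbp signal in the Lean mouse, but the call depended on the normalization and on pair 10.

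The opposition was stronger between Arntl and Nr1d2. Here r was -0.86 (permutation p = 0.00063, adjusted p = 0.00884) and Spearman's coefficient -0.87 (p = 0.00212, adjusted p = 0.0378), with -0.82 without pairs 5 and 10. The coefficient was -0.98 after centring (adjusted p = 0.000455, from the smallest p that the permutations can give, 1e-05) and -0.94 with LOWESS on all gene spots (adjusted p = 0.00819). It stayed between -0.88 and -0.82 when each pair was left out in turn, and each of these values passed. Nr1d2 had the lowest r with Arntl of the 283 other probes in all 3 normalizations. The relation was added after the values were seen, and it lost its call under plain background subtraction (r = -0.45) and with dim spots left out (r = -0.30, 7 pairs). It also did so in the authors' value table (r = -0.61, 9 pairs) and over the dye-swapped pairs alone (r = -0.89, 7 pairs).

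**Figure D4:**
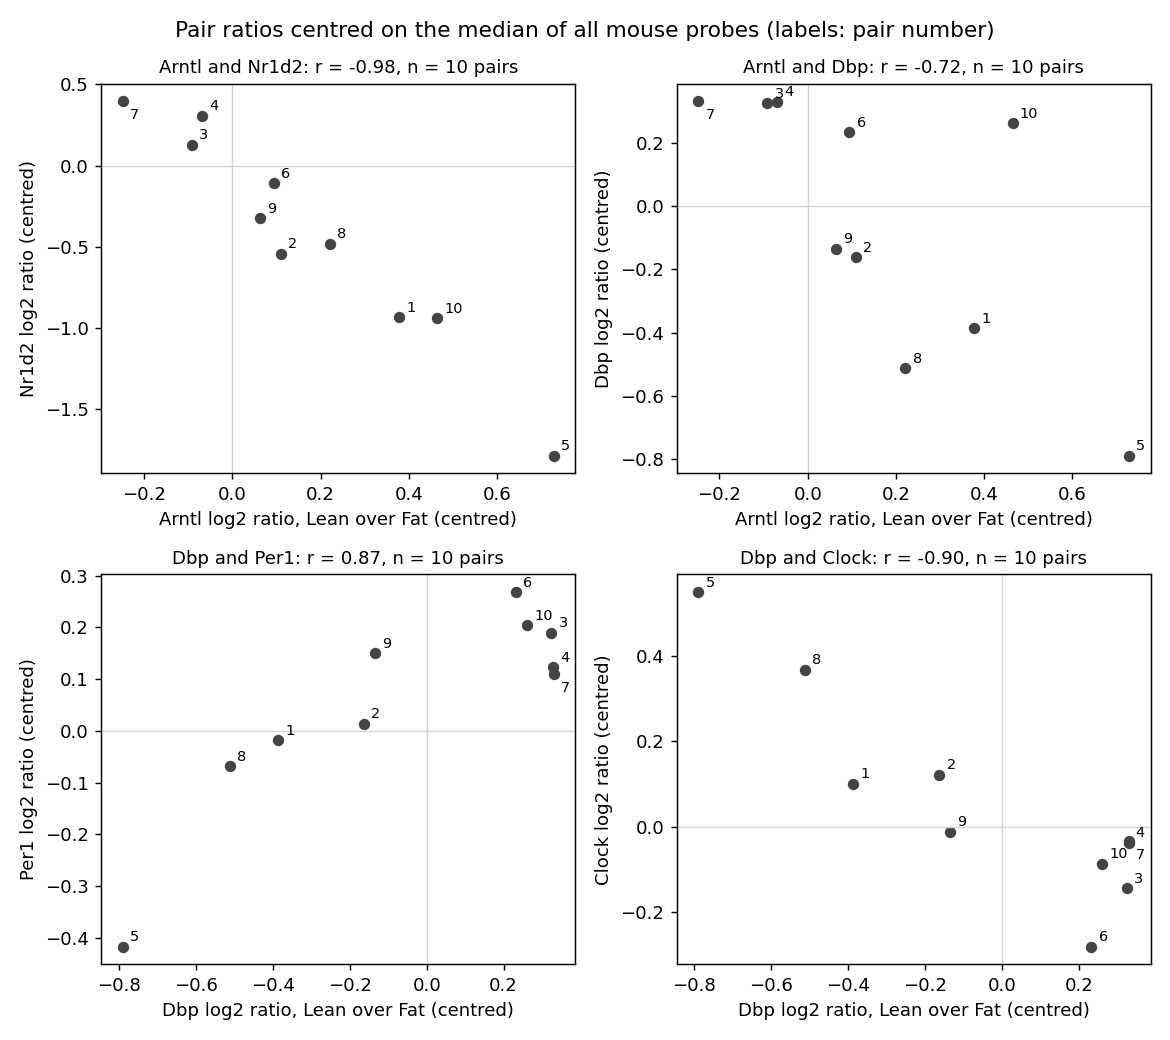
Centred log2 ratios of Lean over Fat in 4 panels, with Arntl on the horizontal axis against Nr1d2 and Dbp and with Dbp on the horizontal axis against Per1 and Clock, and the number of each of the 10 pairs beside its point. Nr1d2 falls close to a descending line over Arntl (r = -0.98), Dbp scatters more widely over Arntl (r = -0.72), and over Dbp the points rise for Per1 (r = 0.87) and descend for Clock (r = -0.90).

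Dbp moved with Per1 and with Nr1d2, which share its drivers. For Dbp and Per1, r was 0.89 (permutation p = 0.00068, adjusted p = 0.00884), Spearman's coefficient 0.84 (p = 0.00376, adjusted p = 0.0428), and r without pairs 5 and 8 was 0.66. It was 0.87 both after centring (adjusted p = 0.015) and with LOWESS on all gene spots (adjusted p = 0.00819). Of the 283 other probes, Per1 had the highest r with Dbp in the spike-in fit and after centring, although the Per1 probe was above background in both channels on no array. For Dbp and Nr1d2, r was 0.83 (permutation p = 0.00316, adjusted p = 0.0205), Spearman's coefficient 0.68 (p = 0.0354, adjusted p = 0.153) and r without pairs 5 and 8 was 0.69. It fell to 0.64 (adjusted p = 0.242) without pair 5 and was 0.81 (adjusted p = 0.061) without pair 3, and neither passed. It was 0.79 after centring (adjusted p = 0.0718), without a call, and 0.91 with LOWESS on all gene spots (adjusted p = 0.00819). Dbp and Per3 had r of 0.80 (adjusted permutation p = 0.0297), with 0.30 without pairs 5 and 8, 0.71 after centring (adjusted p = 0.142) and 0.83 with LOWESS on all gene spots (adjusted p = 0.0413).

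Once pairs were centred, Clock ran against 3 of its targets, Dbp, Per1 and Per3, of which the Per1 and Per3 probes were above background in both channels on no array. Its r was -0.90 with Dbp (adjusted permutation p = 0.0103), -0.96 with Per1 (adjusted p = 0.000455) and -0.87 with Per3 (adjusted p = 0.0344), and in the fit to all gene spots -0.90, -0.93 and -0.84 (adjusted p = 0.00892, 0.00819 and 0.0413). In the spike-in fit these were -0.65, -0.51 and -0.44, and none passed (adjusted p = 0.123, 0.309 and 0.376). Spearman's coefficient after centring was -0.76, -0.94 and -0.76 (adjusted p = 0.15, 0.0105 and 0.15), and r without pairs 5 and 8 was -0.70, -0.94 and -0.57. Arntl and Clock had r of 0.49 in the spike-in fit and 0.62 after centring, and Arntl and Cry1 0.68 and 0.78, with no call (adjusted p = 0.322, 0.254, 0.115 and 0.0729). The other targets had no call after centring. Clock had r of 0.31 with Cry1 (adjusted p = 0.706), -0.17 with Per2 (adjusted p = 0.858), -0.52 with Cry2 (adjusted p = 0.432) and -0.69 with Nr1d2 (adjusted p = 0.172), the last of which passed in the fit to all gene spots (r = -0.87, adjusted p = 0.0402). The coefficient with Cry1 was positive in all 3 normalizations.

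By likeness of centred ratios over the 10 pairs, the probes of other genes with the lowest r with Arntl were Nr1d2 (-0.98), Abcg5 (-0.91) and Ppara (-0.85), and those with the highest were Oprs1 (0.92), Actb (0.86) and Abcg4 (0.85). Abcg5 is a sterol transporter of the canalicular membrane and Ppara a nuclear receptor for fatty acids. For Dbp the lowest were Clock (-0.90), Lip1 (-0.86) and Ppp1r3c (-0.84), and the highest Per1 (0.87), Vcam1 (0.82) and Nr1d2 (0.79). Ppp1r3c targets protein phosphatase to glycogen. These coefficients were picked as extremes among 283 probes and are given as a description.

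The levels of single mice were taken from the same fit, as log2 signal over the median mouse probe of the channel. Arntl was at -0.70 in the lowest Lean mouse, -0.14 at the median and 0.23 in the highest, against -0.77, -0.32 and 0.07 in Fat mice. Dbp was at -1.11, -0.39 and 0.33 in Lean mice and -0.70, -0.32 and -0.02 in Fat mice. Nr1d2 was at -0.76, 0.58 and 1.25 in Lean mice and -0.04, 0.75 and 1.83 in Fat mice. The ranges of the lines overlapped for all 3 genes. Within a line, as a description over 10 mice, Arntl and Dbp had r of -0.75 in Lean and -0.44 in Fat mice, and Arntl and Nr1d2 -0.38 and -0.48. Arntl and Cry1 had 0.67 and 0.69. Arntl and Per1 had 0.06 and 0.44, so that an opposition of these genes was not seen within either line. Clock had r of -0.23 in Lean and -0.50 in Fat mice with Dbp, and -0.12 and -0.39 with Per1. With Per3 it had 0.02 and 0.44, and with Nr1d2 0.51 and 0.38, which is not the negative sign of their pair ratios. Dbp had 0.44 and 0.19 with Per1, 0.55 and -0.35 with Per3, and 0.68 and 0.18 with Nr1d2. Levels of the Lean and the Fat mouse on 1 array share its hybridisation. Their r over the 10 pairs was 0.97 for Timeless, 0.90 for Per2 and 0.83 for Clock, and 0.53 for Arntl, 0.41 for Nr1d2 and 0.21 for Dbp.

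**Figure D5:**
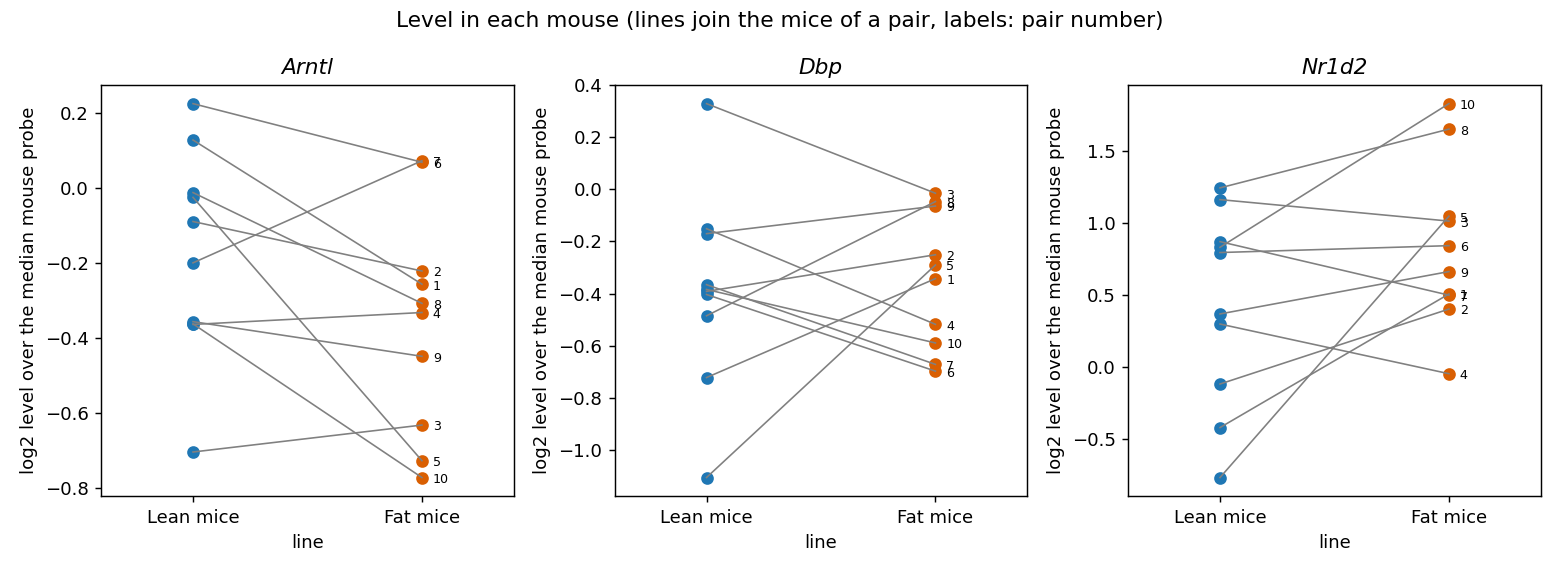
Log2 level over the median mouse probe (vertical axis) in each of the 10 Lean and 10 Fat mice (horizontal axis), in a panel each for Arntl, Dbp and Nr1d2, with lines joining the mice of a pair. Levels of the Lean and Fat mice overlap, and Nr1d2 spans from -0.76 to 1.25 in Lean and from -0.04 to 1.83 in Fat mice.

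Of 12 liver genes under clock control with 13 probes, 0 passed the adjusted threshold in limma, and 2 had an unadjusted p under 0.05, both lower in Lean mice. The share of all probes at that p was 15.1%, and 5.28% were lower in Lean. G6Pase, the last enzyme of glucose release, had a log2 ratio of -0.71 (standard error 0.21, p = 0.0043, adjusted p = 0.102) and was below 0 in 8 of 10 pairs. Cyp2b10, a drug-metabolising enzyme, had -0.24 (standard error 0.09, p = 0.0174, adjusted p = 0.214), also below 0 in 8 of 10 pairs. The paper reports that the Cyp2b10 probe and the Cyp2a probes cross-react with related genes. The signals named Cyp2b10 and Cyp2a4 here may therefore include those genes. Of the 13 probes, 6 were among the 28 probes with the largest standard deviation, which are 9.86% of all, and their median standard deviation was 0.39 against 0.21 for all probes. Of the 6 hepatocyte probes 3 were among these 28 as well, with a median of 0.33. The 6 probes of clock-controlled genes among the 28 were Alas1 (rate-limiting for heme, rank 2), G6Pase (rank 4), Insig2 (a brake on sterol synthesis, rank 6), Cyp2a4 (a steroid hydroxylase, rank 7), Pck1 (gluconeogenesis, rank 14) and Ppara (rank 21). Of the 13 probes, 8 were above background in both channels on every array, as against 84 of all 284 and none of the 9 clock probes.

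Of 6 immediate early genes, which acute stimuli induce within minutes, 0 passed the adjusted threshold in limma and 2 had an unadjusted p under 0.05, both higher in Lean mice, beside 9.86% of all probes in that direction. Nr4a1 had a log2 ratio of 0.14 (standard error 0.05, p = 0.0223, adjusted p = 0.236) and Jun 0.14 (standard error 0.06, p = 0.0355, adjusted p = 0.297), above 0 in 7 and 8 of 10 pairs. Both probes were dim, above background in both channels on 2 arrays for Nr4a1 and 5 for Jun. Over the dye-swapped pairs, arrays with Lean in Cy3 and in Cy5 read -0.001 and 0.28 for Nr4a1 and -0.06 and 0.38 for Jun. In the fit to all gene spots these were 0.18 and 0.06, and 0.08 and 0.21. With LOWESS on all gene spots the unadjusted p of Jun was 0.0807. Fos was at -0.02 and Egr1 at 0.11, while Nr4a2 and Nr4a3 were above background on no array.

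By the leading digits of their numbers the slides fall into series A of 5 pairs and series B of 4. The slide of pair 10 has a number apart from both and was counted with series B, which made 5 pairs each. The mean ratio of Arntl was 0.30 in series A and 0.10 in series B, that of Nr1d2 -0.63 and -0.16 and that of Dbp -0.17 and 0.14. Without pair 10 the means of series B were -0.0039, 0.02 and 0.09 for Arntl, Nr1d2 and Dbp. No clock probe differed between the series (limma, smallest adjusted p = 0.871). With the series as a term, r was -0.84 for Arntl and Nr1d2 (adjusted permutation p = 0.0115), -0.52 for Arntl and Dbp (adjusted p = 0.228) and -0.81 for Arntl and Per2, which then passed (adjusted p = 0.019). Without pair 10 these coefficients were -0.87, -0.91 and -0.64, given without a test.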

How the data were processed

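Array-Pro Analyzer was used by the authors to read the array images, and the intensity of each spot was deposited as mean foreground and local background of either channel, before normalization. For the deposited value table of log2 ratios, the authors removed low-quality spots and used OWNormalize with LOWESS on luciferase and Scorecard spike-ins. The direction of each ratio follows the channel labels, so no array was turned. Here background was corrected by normexp (offset 50), and control LOWESS (span 0.3, limma 3.58.1, R 4.3.3) was fitted to 198 spots of 13 luciferase and calibration controls. Spots of a probe, then arrays of a pair, were averaged on the log2 scale. The ratio was tested against 0 with limma over 284 probes, Benjamini-Hochberg at 0.05, beside an exact sign-flip permutation test. Correlations used permutation tests of 100000 resamples, two-sided (SciPy 1.17.1), adjusted over 91 relations, of which 78 are given. A clock loop gene is not reported here.

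Names came from the study's gene list for 231 probes and from synonyms for 47, and 6 stayed unnamed. The text names every clock probe, the other clock loop genes, the listed output and immediate early genes past an unadjusted p of 0.05, with others of these lists chosen after their values were seen, and the 3 probes with the highest and lowest r with Arntl and with Dbp. The members, lists and tests were chosen with earlier results of these data known. The replicates are the 10 pairs of separate mice, except in the fit with a dye term, which used the 17 arrays. The number of pairs limits the precision. The same steps were tested on simulated arrays of 284 probes for Lean over Fat: 19 of 20 probes planted at 0.3 and 20 of 20 at 0.6 were called, with mean estimates of 0.23 and 0.48, and 1 of 224 unchanged probes was called. Most simulated probes varied less between pairs than Dbp and Nr1d2 did (standard deviations of 0.47 and 0.73). The simulated dye effect was shared by the control spots, so that the fit could remove it. These counts therefore check the steps and do not give the chance of a call on the real arrays. Alternatives changed background correction, normalization, dim spots, the average of spots, the source table, dye, slide series, array weights, the test and the pairs left out. The median background column, the alternatives for Nr1d2 and Rora, the relations of Nr1d2 and the series values without pair 10 were added after the data were seen.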

Additional observations from a re-analysis of the deposited data

Results flagged for a closer look

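In 46 groups of 10 values, 4 had an end value whose gap to the next value, divided by the range, exceeded Dixon's 95% critical value. The groups were the ratios and the Lean and Fat levels of the clock probes (42 groups) and the ratios of the 4 output and immediate early genes past an unadjusted p of 0.05. Chance flags about 1 in 20 such groups. The log2 ratio of Per1 was -0.61 in pair 5, with the next lowest at -0.06. It is the mean of -1.36 on the array with Lean in Cy3 and 0.15 on the array with Lean in Cy5. The log2 ratio of Rora was 0.85 in pair 2, with the next highest at 0.27, from arrays at 1.64 and 0.06, so that it was high on 1 of the 2 arrays of the same mice. The level of Rora in the Lean mouse of pair 2, taken from the same arrays, was 0.70, with the next at 0.04. The level of Per2 in the Fat mouse of pair 4 was 0.79, with the next highest at -0.13, from a single array.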

How the results depend on the processing

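The count of clock probes past the adjusted threshold was 0 under all alternatives except the methods' t-test without adjustment, which gave 1, and the check of dye orientations gave 0 in all 7 settings. In that check a single probe could not pass even at the smallest p that 7 pairs allow. Small mean ratios changed sign. Without background correction Cry1, Per1 and Per3 were at -0.016, -0.015 and -0.066, and with plain subtraction Dbp, Per2 and Per3 were at 0.056, 0.0077 and -0.17. LOWESS on all gene spots gave -0.037 for Cry1 and -0.015 for Per3. Median centring of spots gave -0.11, -0.036, -0.061, -0.11 and -0.12 for Cry1, Cry2, Per1, Per3 and Timeless. For Cry1 and Per3, a span of 0.75 gave -0.012 and -0.027, centred pairs -0.015 and -0.012, dye-swapped pairs -0.023 and -0.019, and a dye term -0.0091 and -0.0084. Per2 was at 0.0013 with the median of spots, 0.022 with the median background, 0.014 over dye-swapped pairs, 0.030 in series A and 0.013 with array weights, which put Dbp at 0.0055. Series B gave -0.0036, -0.088, 0.14, -0.021, -0.017 and -0.0074 for Clock, Cry1, Dbp, Per3, Timeless and Rora, the value table -0.049 for Timeless, and leaving out dim spots -0.077 for Arntl. The cause was not tested.

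For Arntl with Dbp, plain subtraction gave r = 0.083 and LOWESS on all gene spots -0.80, which passed. For Arntl with Per1, r was 0.035 without background correction and 0.23 with plain subtraction. For Arntl with Per2 it was 0.079, 0.20, 0.024, 0.015 and 0.14 without correction, with plain subtraction, median centring, the median background and the value table, and -0.81 with the series as a term, which passed. For Arntl with Per3 it was 0.20 with plain subtraction and 0.074 with median centring.

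Leaving out each pair gave ranges of mean ratio of 0.16 to 0.24 for Arntl, 0.058 to 0.14 for Clock, -0.0078 to 0.051 for Cry1, 0.044 to 0.11 for Cry2, -0.076 to 0.091 for Dbp, 0.057 to 0.17 for Per1, -0.060 to 0.012 for Per2, -0.016 to 0.074 for Per3, 0.024 to 0.075 for Timeless, -0.49 to -0.22 for Nr1d2 (without pair 5) and 0.064 (without pair 2) to 0.18 for Rora. For r of Arntl the ranges were -0.83 to -0.40 with Dbp (passing without pair 10), -0.61 to 0.0020 with Per1, -0.69 to -0.37 with Per2 and -0.43 to -0.043 with Per3. The tests of Lean over Fat were paired, since every ratio compares the mice of a pair. With dim spots left out, Per1, Per3, Cry2 and Timeless had too few pairs to be tested, and correlations with under 6 pairs were not run. Signal near background limits the clock probes, and a p that misses the threshold does not show equal levels.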
